A study of Mus musculus with 17 samples.

Results

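Mouse fetal liver cells expressing the microRNA miR-125b were compared directly with fetal liver cells expressing a short hairpin RNA against Arid3a. The comparison asks what the microRNA does to the transcriptome beyond lowering Arid3a, the gene at which the hairpin is aimed. It rests on 5 of the 17 RNA sequencing libraries of the series, 3 labelled miR-125b (replicates 1, 2 and 3) and 2 labelled shArid3a (replicates 1 and 3), chosen by their labels alone, and on all genes of their shared count table. The 3 control hairpin libraries of that table (sh-ctrl) were left out of the main fit and entered only alternative fits that are named as such. Their levels are given beside those of the other groups. The cells of all 8 libraries were taken on embryonic day E12.5 or E13.5, or between them, from B6J.129(Cg) mice whose Rosa locus carries the CAG-cas9*,-EGFP allele, which makes Cas9 and EGFP from the broadly active CAG promoter. All 8 also carried the guide RNA sgGata1 (the labels name these cells for Gata1s), and all received doxycycline at 1 µg/mL for 10 days. Neither arm of the comparison was therefore wild type for Gata1 by its labels. The sources used here do not give the hairpin sequence, the miR-125b construct or whether replicates came from separate embryos or cultures, so p-values measure the spread between these libraries only.

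MicroRNAs lower the mRNAs to which they pair, mainly through the seed, a short stretch near the 5′ end that pairs with matching sites in the 3′ untranslated region (UTR). miR-125b belongs to the lin-4 family, is known for expanding blood progenitors and megakaryocyte precursors, and has a gene copy on the human chromosome that is trisomic in Down syndrome. GATA1 directs megakaryocyte and red cell development, and its short form, GATA1s, lacks the amino-terminal activation domain and is a hallmark of Down syndrome leukaemia. Arid3a encodes a DNA-binding protein of the ARID family that is known from B cells and blood stem cells. A hairpin against Arid3a is aimed at this gene, whereas a microRNA can act on many mRNAs. Direct effects of the hairpin on other mRNAs were not tested.

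The sequences below show the mature microRNA and the sites in the annotated 3′ UTRs to which its seed matches, for Arid3a and for the 8 matched genes called lower in the miR-125b arm. Capitals mark the seed (bases 2 to 8) in the microRNA and the matching bases in the sites, and every sequence is written 5′ to 3′ in the sense of its own RNA. The mature sequence is from RefSeq (GRCm38.p6) and the sites are from GENCODE M21 transcripts.
mmu-miR-125b-5p: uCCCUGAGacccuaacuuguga
Arid3a, first 8mer: gtggcctcctgtgcCTCAGGGA
Arid3a, second 8mer: ccatgggtaactggCTCAGGGA
E2f2: gccttccacctaccCTCAGGGA
Abtb1: tggggcaggcaccaCTCAGGGA
Mfsd13a: ctgggccctgtgtgCTCAGGGA
Lin28b: gacaaagaactttgCTCAGGGA
Cln6: tcttttctgctgttCTCAGGGA
Lactb: attagttctttacaCTCAGGGA
Podxl, site nearer the stop codon: tattccacaggaagCTCAGGGA
Podxl, site farther from it: atttctgatggcctCTCAGGGA
M6pr: gtctctcctgctggCTCAGGGA

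The microRNA's mature 5p arm is encoded identically at chr9:41581940-41581961 (Mir125b-1) and chr16:77646279-77646300 (Mir125b-2), both on the plus strand. An 8mer match, CTCAGGGA, pairs with the whole seed and adds the base opposite the microRNA's first base, and a 7mer-m8 match, CTCAGGG, lacks that last base and is contained in every 8mer. Only the sense strand of annotated 3′ UTRs was searched, and 4.888% of the 20746 genes with such a UTR held an 8mer. Arid3a holds 2 of them in its 3082-base 3′ UTR, at chr10:79952873-79952894 and chr10:79953806-79953827 on the plus strand, and 4 further 7mer-m8 matches. The other sites printed here lie at chr4:136194327-136194348 (E2f2, plus), chr6:88836079-88836100 (Abtb1, minus), chr19:46374897-46374918 (Mfsd13a, plus) and chr10:45378798-45378819 (Lin28b, minus). Those of Cln6 and Lactb lie at chr9:62851878-62851899 (plus) and chr9:66955453-66955474 (minus), those of Podxl at chr6:31521976-31521997 and chr6:31521708-31521729 (minus), and that of M6pr at chr6:122317286-122317307 (plus). A match is a sequence feature, and binding was not measured. The host loci Mir125b-1, Mir125b-2 and Mir99ahg had 0 counts in all 8 libraries, which says nothing of the transgene, since mature microRNAs are not captured by such libraries.

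Library totals were 37323891 and 36997667 counts for shArid3a and 35072928, 36973274 and 40859301 for miR-125b, so depth differed little between the arms. Counts are reads without molecular identifiers, and every interval or floor given covers counting error only. Log2 levels of pairs of libraries correlated at 0.962 to 0.984 within a group and at 0.948 to 0.967 between the groups, so these ranges overlapped. Ribosomal RNA-like genes took 0.237% to 0.337% of counts in the 5 libraries and 0.0388% to 0.0697% in sh-ctrl, so the control stood apart from both arms in this measure. The 28 megakaryocyte and platelet genes summed to 6189 to 6741 CPM (counts scaled to a common library size) with shArid3a and 6091 to 7341 CPM with miR-125b. Their levels were uneven: Itga2b was 656 to 1150 CPM and Pf4 1270 to 2120 CPM, whereas Vwf was 2.01 to 7.15 CPM, Clec1b 0.924 to 4.63 CPM, Selp 0.163 to 2.88 CPM and Tubb1 0.0 to 0.87 CPM, and P2ry12 had 0 counts in all 5 libraries. The red cell genes Alas2 and Slc4a1 were at or below 0.324 CPM, and 7 of 12 hepatocyte genes had 0 counts in all 5 libraries.

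Arid3a itself was lower with the microRNA than with the hairpin in every library. Its level was 20.4 and 18.9 CPM with shArid3a and 7.14, 9.75 and 10.0 CPM with miR-125b, beside 45.2, 56.3 and 57.2 CPM with sh-ctrl. The groups did not overlap, and the means were 19.7 ± 1.03 CPM (SD, n = 2) and 8.97 ± 1.6 CPM (SD, n = 3). The log2 fold change (miR-125b minus shArid3a) was -1.13 with a standard error (SE) of 0.24, and the edgeR adjusted p of 0.0815 missed the threshold of 0.05. The call depended on the analysis: the adjusted p ranged from 0.000482 (DESeq2) to 0.374 over 15 alternatives and passed in 5 of them, for example at 0.0240 when sh-ctrl shared the fit. The arms also differed in the Arid3a mRNA that remained, and the hairpin was in the shArid3a arm alone. Further loss of Arid3a, other actions of the microRNA and other actions of the hairpin therefore cannot be told apart in the differences below. Gata1 was 318 and 421 CPM with shArid3a and 245, 282 and 407 CPM with miR-125b, with overlapping groups, a log2 fold change of -0.24 ± 0.23 (SE) and an adjusted p of 0.714.

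Of 13325 genes tested, 131 (0.983%) differed between miR-125b and shArid3a at an edgeR adjusted p under 0.05, of which 82 (0.615%) were higher and 49 (0.368%) lower with the microRNA. The largest differences were on the higher side, where 43 genes passed a log2 fold change of 2, against 14 genes at or below -2. In all 131 the 5 libraries did not overlap, a pattern also seen in 30.3% of all genes tested (14.7% higher, 15.6% lower). The median log2 fold change of all genes was -0.00, and 126 of the 131 genes were protein-coding. At an adjusted p under 0.01 stood 11 genes: Mpo, Tcrg-C1, Tmem176b, Aldh3a1, Serpinb1a, Pdcd4, Ccnd1 and Maged1 on the higher side, and Cd24a, Sept1 and Eya2 on the lower side. The number of calls moved widely with single libraries: it was 350 without miR-125b replicate 1, 6 without its replicate 2, 37 without its replicate 3, 10 without shArid3a replicate 1 and 16 without shArid3a replicate 3. Only 5 of the 131 (Mpo, Serpinb1a, Cd24a, Aldh3a1 and Tcrg-C1) were called in all 5 of these fits, 39 were called in at least 2, and 92 were called only without miR-125b replicate 1. By contrast, DESeq2 called 719 genes (5.4%, with 3.23% higher and 2.17% lower) and 1820 genes had an unadjusted edgeR p under 0.05 (13.7%, with 7.6% higher and 6.06% lower). The direction of all 131 held in each fit that tested them.

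**Figure D1:**
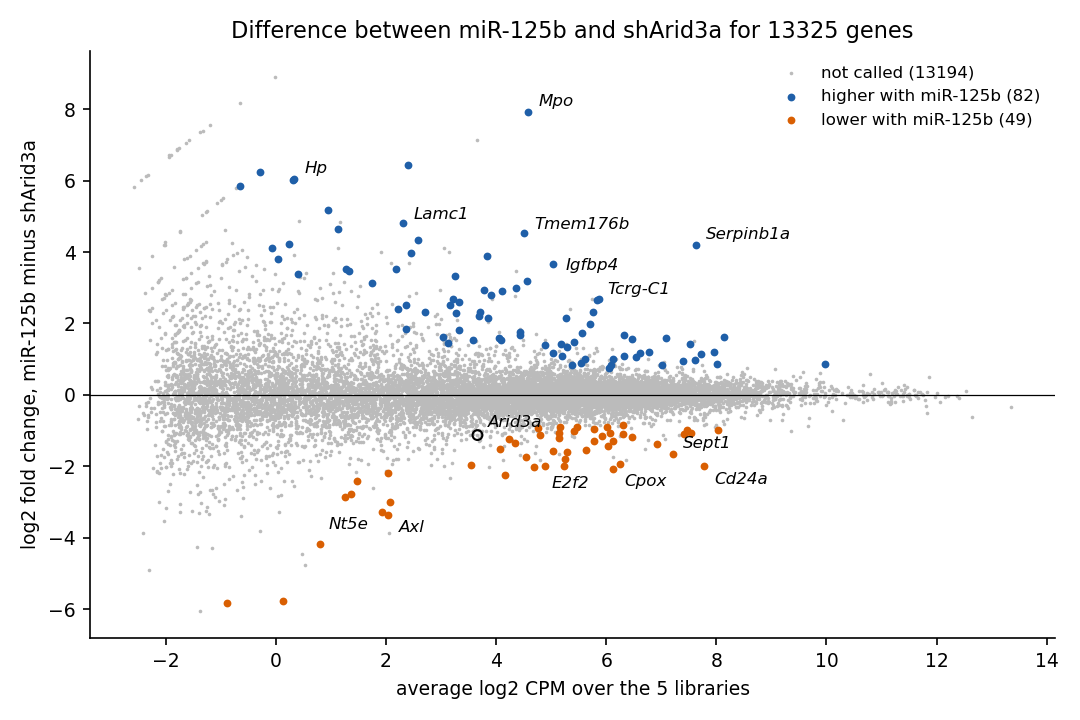
Log2 fold change of miR-125b minus shArid3a (vertical axis) against the average log2 CPM over the 5 libraries (horizontal axis) for the 13325 genes tested; blue points are the 82 genes called higher, orange points the 49 called lower, and the open circle is Arid3a. Mpo stands highest among the called genes at 7.91, and Arid3a lies at -1.13 without being called.

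The sh-ctrl levels place each called gene relative to both arms. For 68 of the 82 higher genes the sh-ctrl mean lay nearer to shArid3a than to miR-125b, and for 43 of the 49 lower genes it did so too. In 72 of the 82, all 3 sh-ctrl libraries lay below every miR-125b library, and in 42 they lay above every shArid3a library, with 32 genes in both counts. The matching counts among the 49 lower genes were 43 for sh-ctrl above every miR-125b library, 24 for sh-ctrl below every shArid3a library, and 18 for both. On a scale from 0 (shArid3a mean) to 1 (miR-125b mean) of log2(CPM + 0.1), the sh-ctrl mean had a median of 0.30 for higher genes and 0.23 for lower genes. These places describe genes chosen for a difference between the other groups and carry no test. The matching shares among all genes are not given here, and the miR-125b arm held more libraries than the shArid3a arm. The counts on the miR-125b side and on the shArid3a side therefore cannot be ranked against each other.

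**Figure D2:**
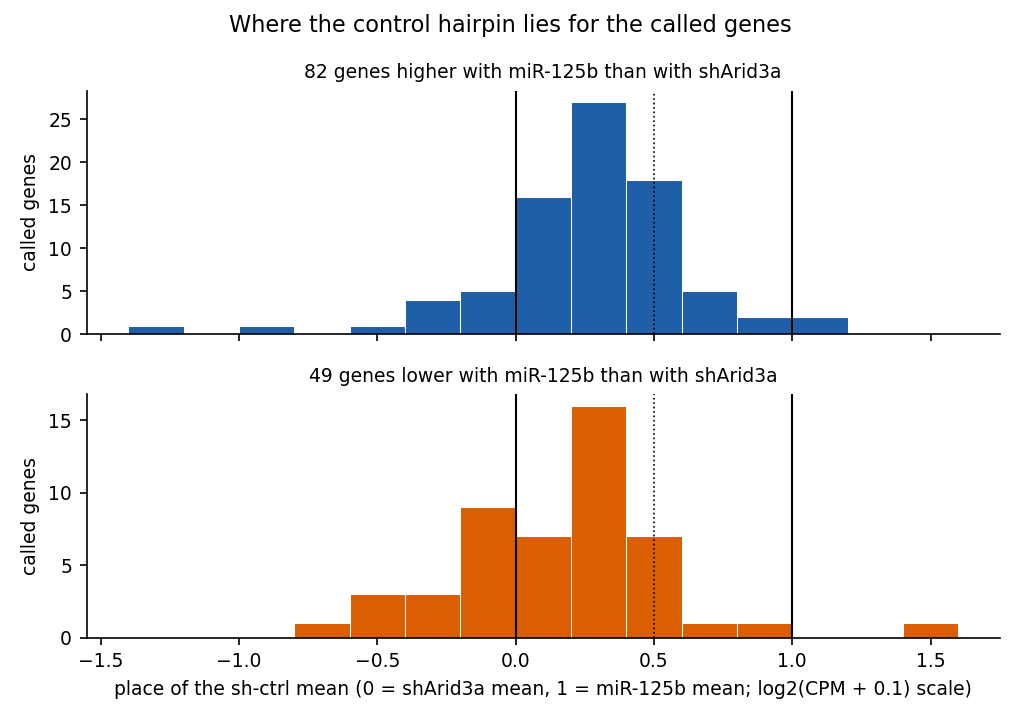
Number of called genes (vertical axis) by the place of the sh-ctrl mean between the shArid3a mean (0) and the miR-125b mean (1) on the log2(CPM + 0.1) scale (horizontal axis), for the 82 higher genes (blue) and the 49 lower genes (orange). Most genes lie left of the dotted line at 0.5, with quartiles of 0.07 and 0.42 for the higher and -0.05 and 0.37 for the lower genes.

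The largest rise was in a gene of early neutrophils, and 3 other genes of its list and a monocyte gene rose as well. Mpo, which encodes myeloperoxidase of the primary granules, was 0.163 and 0.177 CPM with shArid3a and 62.2, 26.4 and 36.4 CPM with miR-125b. Every miR-125b library was above every other library of the table, since sh-ctrl held 0.565, 0.0293 and 0.0 CPM, and the log2 fold change was 7.91 ± 0.53 (SE, edgeR adjusted p = 0.00279). In counts, Mpo had 6 and 6 reads with shArid3a and 1951, 969 and 1440 with miR-125b. Serpinb1a, an inhibitor of neutrophil serine proteases, was 10.9 and 25.8 CPM against 432, 283 and 286 CPM, a log2 fold change of 4.20 ± 0.40 (adjusted p = 0.00674). It had the highest CPM of the 12 rises named by size, and sh-ctrl (22.3 ± 3.19 CPM, SD, n = 3) sat at the level of shArid3a. Lyz2, a lysozyme gene, was 2.50 and 2.36 CPM against 14.6, 10.5 and 16.9 CPM, a log2 fold change of 2.53 ± 0.32 (adjusted p = 0.0203). Hp (haptoglobin) had 0 and 2 counts with shArid3a against 76, 71 and 77 with miR-125b, and Cd14, the lipopolysaccharide co-receptor of monocytes, had 1 and 0 counts against 64, 34 and 41. Their ratios of summed counts per library size were 73.7 (95% counting interval 20.2 to 612.5) for Hp and 91.5 (16.2 to 3640) for Cd14, with edgeR adjusted p of 0.0255 and 0.0391. In bulk RNA, a larger number of cells of a type and more RNA of that type per cell cannot be told apart.

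Of the 19 genes on the list of primary granule and early myeloid genes, 14 were tested, 4 were called higher (Mpo, Hp, Serpinb1a and Lyz2) and 0 lower, where 0.615% of all genes were called higher. Of the 14, 13 were above 0, and 9 had groups that did not overlap on the higher side, beside 14.7% of all genes. Their median log2 fold change was 2.18 beside -0.00 for all genes, but a low gene can pass the filter through 1 group alone, so these counts and the median are descriptions. With at least 10 counts asked of every library, 8 were tested, 2 were called and the median was 1.2. Cebpa, the transcription factor that drives granulocyte fate, was 2.15 and 1.59 CPM against 9.27, 7.46 and 5.06 CPM without passing (log2 fold change 1.96, adjusted p = 0.0683). Prtn3, at 33.0 and 61.1 CPM against 38.1, 48.0 and 104 CPM, and Calr, at 926 and 1130 CPM against 1130, 1160 and 1350 CPM, had overlapping groups. The later granule genes were near the floor of detection: of 14, 3 were tested, 0 were called by edgeR or DESeq2 or at an unadjusted p under 0.05, and 4 had 0 counts in all 5 libraries. The early myeloid calls numbered 4 without miR-125b replicate 1 and 2 without each of the other 4 libraries.

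Of 21 monocyte and macrophage genes, 8 were tested, with a median of 1.81, and edgeR called 1 higher (Cd14), beside 0.615% of all genes. Of the 21, 7 had 0 counts in all 5 libraries, among them the complement genes C1qa, C1qb and C1qc. The list summed to 12.53 to 16.2 CPM with shArid3a, 21.8 to 24.4 CPM with miR-125b and 15.8 to 34.1 CPM with sh-ctrl. Low genes can pass the filter through miR-125b alone, which sets their sign: with at least 10 counts asked of every library, 4 were tested, 0 were called (1 at an unadjusted p under 0.05) and the median was 0.34. Cd14 lost its call in 4 of the 5 leave-outs and kept it without miR-125b replicate 1. Of 17 tested mast cell and basophil genes, 0 were called by edgeR. At an unadjusted edgeR p under 0.05, 3 were higher (beside 7.6% of all genes), and DESeq2 called 1 higher (beside 3.23%). Of the 17, 14 lay above 0 with a median of 0.85. That median was 0.05 without miR-125b replicate 1, 0.18 without shArid3a replicate 1 and 2.41 without shArid3a replicate 3. Low genes can pass the filter through 1 group here too: with at least 10 counts asked of every library, 11 were tested and the median was 0.74. Replicate 1 of miR-125b stood apart at some protease genes of the list, chosen after their values were seen. The basophil protease gene Prss34 was 60.1, 2.86 and 2.76 CPM over the 3 miR-125b libraries and 0.299 and 0.0 CPM with shArid3a. Mcpt8 was 43.7, 0.872 and 1.57 CPM against 0.109 and 0.884 CPM. Replicate 1 did not stand apart at the abundant members Srgn (527, 423 and 526 CPM with miR-125b) and Gata2 (219, 187 and 203 CPM). Cma1, a mast cell protease gene, was 89.9, 5.75 and 7.38 CPM against 2.26 and 31.3 CPM, so its groups overlapped. The list summed to 787 to 821 CPM with shArid3a and 725 to 1217 CPM with miR-125b, and its part in the myeloid differences was not tested.

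Other rises named by size were in genes of adhesion, growth factor binding and transcription. Lamc1, the gamma chain of laminin, was 0.462 and 0.118 CPM with shArid3a and 8.67, 8.01 and 8.42 CPM with miR-125b, a log2 fold change of 4.82 ± 0.57 (edgeR adjusted p = 0.0149). Igfbp4, which encodes a secreted binding protein of insulin-like growth factors, was 7.04 and 1.5 CPM against 53.8, 53.3 and 55.6 CPM, a log2 fold change of 3.66 ± 0.55 (adjusted p = 0.0252). The miR-125b libraries were tightly grouped at these 2 genes, while the shArid3a pair differed several-fold. St14, the membrane protease matriptase, was 0.843 and 0.295 CPM against 8.38, 9.21 and 9.58 CPM, with sh-ctrl at 0.578 ± 0.330 CPM (SD, n = 3). Ets1, a transcription factor of the ETS family, was 0.0272 and 0.265 CPM against 3.35, 5.26 and 2.35 CPM (log2 fold change 4.64, adjusted p = 0.0470). Sort1 (the sorting receptor sortilin), Zbed3 and Nucb2 (a calcium-binding protein) were also called, at log2 fold changes of 3.53, 4.33 and 3.52, from below 1 CPM in each shArid3a library.

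The neighbouring membrane protein genes Tmem176a and Tmem176b rose together. Tmem176b was 1.36 and 2.0 CPM with shArid3a, 25.1, 37.5 and 52.8 CPM with miR-125b and 4.82 ± 0.879 CPM (SD, n = 3) with sh-ctrl, a log2 fold change of 4.52 ± 0.39 (edgeR adjusted p = 0.00434). Tmem176a followed at 1.30 and 1.95 CPM against 13.5, 26.5 and 31.4 CPM (log2 fold change 3.88, adjusted p = 0.0114). The genes overlap on opposite strands, so without knowledge of strand use some reads may belong to either. The constant-region genes of the T cell receptor gamma chain also rose, with Tcrg-C1 at 14.5 and 14.1 CPM against 81.9, 78.0 and 110 CPM (log2 fold change 2.66 ± 0.20, adjusted p = 0.00391). Tcrg-C2 had 0 and 7 counts against 99, 275 and 648 and was called at an adjusted p of 0.0417. The pair are near-identical copies, so reads may be split between them. Of other T cell genes, Cd3e, Cd4, Cd8a and Rag1 had 0 counts in all 5 libraries, and Cd3g, a chain of the T cell receptor complex, lay the other way at 2.17 and 2.83 CPM against 1.31, 0.735 and 0.0758 CPM (log2 fold change -1.83, adjusted p = 0.393). Of 16 lymphoid genes, 3 were tested and 0 were called by edgeR or DESeq2 or at an unadjusted p under 0.05.

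Outside these groups, Aldh3a1, an aldehyde dehydrogenase gene, was 11.8 and 14.8 CPM with shArid3a and 60.7, 60.6 and 55.3 CPM with miR-125b, with sh-ctrl at 16.8 ± 4.24 CPM (SD, n = 3). Its log2 fold change was 2.15 ± 0.18 (edgeR adjusted p = 0.00434). Pdcd4, an inhibitor of translation, was 40.7 and 44.7 CPM against 140, 120 and 120 CPM, and sh-ctrl at 73.2 ± 15.5 CPM lay between the groups (log2 fold change 1.57 ± 0.15, adjusted p = 0.00688). Both were chosen for naming after their values were seen.

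The 12 falls named by size included surface receptors, enzymes and a cell cycle gene. Axl, a receptor tyrosine kinase, was 10.8 and 7.93 CPM with shArid3a and 1.27, 0.926 and 0.506 CPM with miR-125b, a log2 fold change of -3.37 ± 0.44 (edgeR adjusted p = 0.0206). Nt5e, the surface enzyme CD73 that makes adenosine from AMP, was 7.34 and 9.88 CPM against 1.47, 0.463 and 0.733 CPM, a log2 fold change of -3.28 ± 0.50 (adjusted p = 0.0259). The control differed between the 2 genes: at Axl, sh-ctrl (3.13 ± 0.838 CPM, SD, n = 3) lay between the groups, whereas at Nt5e sh-ctrl (17.1 ± 3.78 CPM) lay above both. Lgals3 (galectin-3) was 6.58 and 12 CPM against 1.12, 0.545 and 1.77 CPM, a log2 fold change of -3.01 ± 0.51 (adjusted p = 0.0389). Ltb4r1, a leukotriene B4 receptor gene, was 71.2 and 41.2 CPM against 21.1, 10.0 and 11 CPM, and Tgm2 (transglutaminase 2) was 50.9 and 47.7 CPM against 8.35, 8.20 and 19.8 CPM. Both fell about as far, with log2 fold changes of -2.0 and -2.02. Cntn1 (the adhesion molecule contactin 1), Spdye4b, Hgfac (the activator of hepatocyte growth factor) and Nxpe4 were low genes, at 4.57 to 8.11 CPM in the shArid3a libraries and 0.531 to 2.22 CPM in the miR-125b libraries, and were called at log2 fold changes of -2.18 to -2.85.

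Cpox, an enzyme of heme synthesis, was 190 and 82.6 CPM with shArid3a and 31.7, 32.0 and 32.4 CPM with miR-125b, a log2 fold change of -2.09 ± 0.30 (edgeR adjusted p = 0.0231). The miR-125b libraries were almost equal while the shArid3a libraries differed more than 2-fold, and sh-ctrl (117 ± 29.2 CPM, SD, n = 3) was within the range of shArid3a. Tspoap1, a synaptic scaffold gene, was 49.9 and 21.3 CPM against 6.37, 9.94 and 6.12 CPM, with a higher sh-ctrl mean of 117 ± 59.8 CPM. Sept1, a septin gene, was 279 and 249 CPM against 80.6, 74.5 and 93.9 CPM (log2 fold change -1.66 ± 0.15, adjusted p = 0.00530), and sh-ctrl at 279 ± 34.5 CPM matched shArid3a within the spread of its libraries. Grb10, an adaptor that restrains insulin and IGF receptors, was 90.7 and 82.5 CPM against 34.2, 32.0 and 22 CPM (log2 fold change -1.55 ± 0.20, adjusted p = 0.0206). Eya2, a transcriptional co-activator, was 42.1 and 42.1 CPM against 13.2, 13.4 and 11.3 CPM (log2 fold change -1.73 ± 0.18, adjusted p = 0.00936), with sh-ctrl between them at 28.2 ± 1.73 CPM. Sept1, Grb10 and Eya2 were chosen for naming after their values were seen.

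At some called genes the shArid3a libraries lay farther from the control than the miR-125b libraries. Cd24a, a surface glycoprotein of immature blood cells, was 409 and 422 CPM with shArid3a, 105 ± 18.1 CPM with miR-125b (SD, n = 3, lowest 90.2) and 136 ± 36.3 CPM (SD, n = 3) with sh-ctrl, a log2 fold change of -1.98 ± 0.17 between the arms (edgeR adjusted p = 0.00434). Csf2rb, the shared beta chain of the receptors for IL-3, IL-5 and GM-CSF, was 56.8 and 72.4 CPM with shArid3a, 158, 222 and 206 CPM with miR-125b and 197 ± 37.8 CPM with sh-ctrl (log2 fold change 1.6 ± 0.20, adjusted p = 0.0170). Ccnd1 (cyclin D1) was 2.72 and 2.48 CPM with shArid3a, 15.5, 16.6 and 14.8 CPM with miR-125b and 12.4 ± 5.14 CPM with sh-ctrl (log2 fold change 2.59 ± 0.27, adjusted p = 0.00936). All 3 show the control near the microRNA. Csf2rb2, the near-identical mouse receptor gene for IL-3 alone, was 14.7 and 24.9 CPM against 59.0, 84.4 and 90.5 CPM, with sh-ctrl at 44.8 ± 7.79 CPM between the groups, and reads may be shared between it and Csf2rb.

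**Figure D3:**
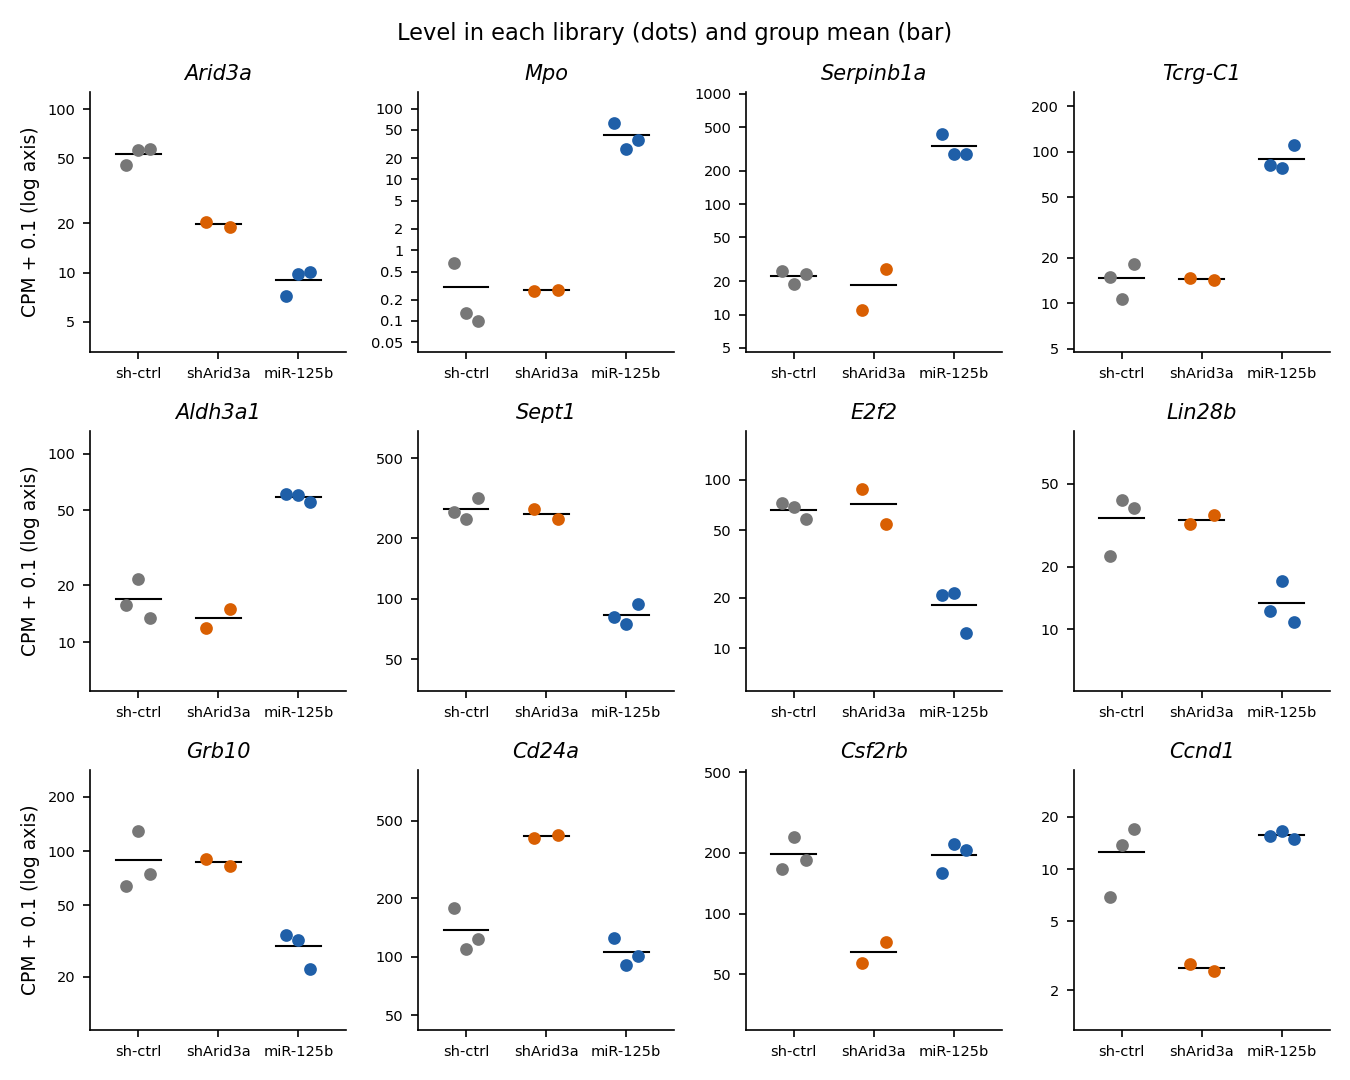
Level of 12 genes in each library (dots) with the group mean (bar), as CPM + 0.1 on a log axis, for sh-ctrl (grey), shArid3a (orange) and miR-125b (blue). At Mpo, Serpinb1a, Tcrg-C1, Aldh3a1, Sept1, E2f2, Lin28b and Grb10 the sh-ctrl dots lie near or around those of shArid3a, at Cd24a, Csf2rb and Ccnd1 they lie nearer to those of miR-125b, and at Arid3a they lie above both.

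Genes whose 3′ UTR matches the seed lay slightly lower in the miR-125b arm than in the shArid3a arm. The 661 tested genes with an 8mer had a median log2 fold change of -0.06 and 57.0% of them lay below 0, beside a median of 0.01 and 48.2% for the 9342 genes with no 8mer or 7mer-m8 match. Of the 661, 8 (1.21%) were called lower and 4 (0.605%) higher, beside 34 (0.364%) lower and 68 (0.728%) higher among the genes without a match. The difference of medians was -0.07 and varied with UTR length: in the shortest of 3 equal classes (up to 668 bases) the medians were -0.18 and 0.05, in the middle class -0.10 and -0.01, and in the longest class (over 1799 bases) -0.04 and -0.02. Matched genes had longer UTRs, with a median of 2356 bases against 968. As the library's own difference between matched and unmatched genes on centred log2 levels, shArid3a gave 0.13 and 0.01 and miR-125b gave -0.09, 0.00 and -0.03, so miR-125b replicate 2 lay next to shArid3a replicate 3. The difference of medians ranged from -0.17 (without shArid3a replicate 3) to -0.01 (without shArid3a replicate 1) and was -0.04 without miR-125b replicate 1, so its size moved with single libraries. The 8 lower calls became 21 of 681 with sh-ctrl in the fit (where 1.35% of all genes were called in either direction) and 50 with DESeq2 (3.08% and 7.56%, beside 0.646% and 2.02% of genes without a match). They became 15 without miR-125b replicate 1, 0 without its replicate 2, 1 without its replicate 3, and 0 without either shArid3a library.

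**Figure D4:**
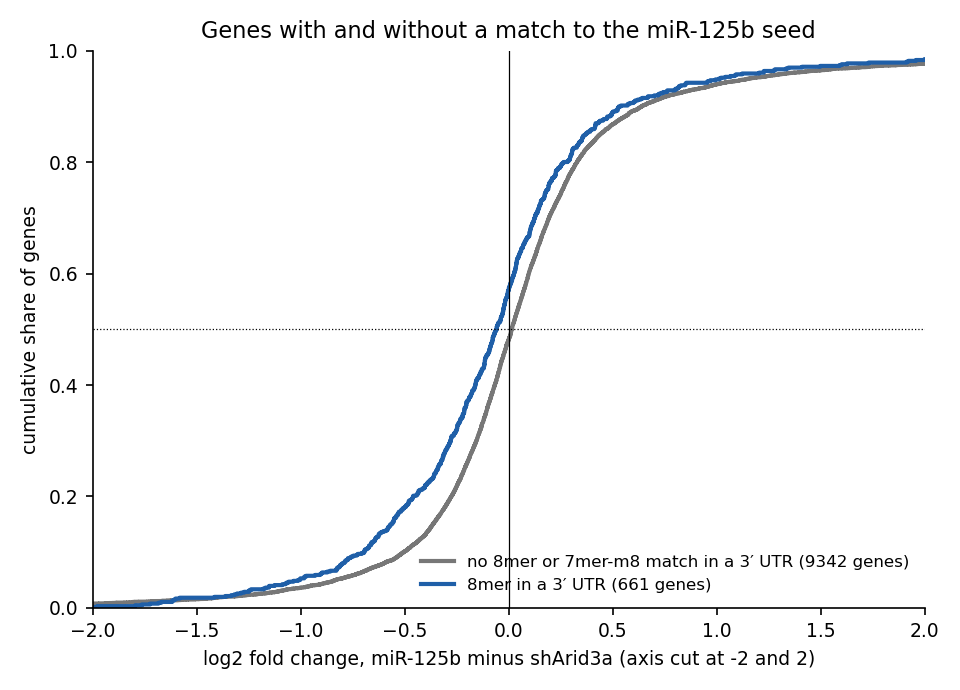
Cumulative share of genes (vertical axis) by log2 fold change of miR-125b minus shArid3a (horizontal axis, cut at -2 and 2) for 661 genes with an 8mer match (blue) and 9342 genes without a match (grey). The blue curve lies left of the grey curve by 0.07 at the medians, which are -0.06 and 0.01.

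The 8 matched genes that fell were E2f2, Abtb1, Mfsd13a, Lin28b, Cln6, Lactb, Podxl and M6pr, whose sites are printed above. E2f2, a transcription factor of the cell cycle, was 87.8 and 54.8 CPM with shArid3a and 20.7, 21.3 and 12.2 CPM with miR-125b, a log2 fold change of -1.98 ± 0.29 (edgeR adjusted p = 0.0233). Abtb1, an ankyrin-repeat and BTB-domain gene, was 64.0 and 73.9 CPM against 15.1, 28.7 and 23.7 CPM, a log2 fold change of -1.61 ± 0.25 (adjusted p = 0.0290). Lin28b, which encodes the RNA-binding protein that blocks let-7 maturation and marks fetal progenitors, was 31.8 and 35.3 CPM against 12.1, 17 and 10.7 CPM, a log2 fold change of -1.33 ± 0.24 (adjusted p = 0.0460). In these 3 genes sh-ctrl lay near or above shArid3a, at 66.3 ± 7.06, 86.8 ± 6.21 and 34.2 ± 10.4 CPM (SD, n = 3), and no miR-125b library reached any library of the other groups. Mfsd13a, a membrane transporter family gene, was 67.8 and 46.2 CPM against 22.6, 17.4 and 17 CPM (log2 fold change -1.58). Cln6, an endoplasmic reticulum protein mutated in Batten disease, was 94.1 and 85.2 CPM against 43.0, 33.3 and 33.5 CPM (log2 fold change -1.29). Lactb, a mitochondrial protein gene, was 30.2 and 30.2 CPM against 13.5, 11.3 and 13.4 CPM (log2 fold change -1.24). Podxl (podocalyxin, a sialomucin related to CD34), which has 2 sites, and M6pr (a mannose 6-phosphate receptor), which has 1, fell by 1.00 and 0.97 on the log2 scale.

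A match did not fix the direction. Lamc1, Ets1, Csf2rb and Mdga1 also hold an 8mer and were called higher, at log2 fold changes of 4.82, 4.64, 1.6 and 1.63. The 30 tested genes with 2 or more 8mers had a median of -0.02 with 1 called lower (Podxl), beside 0.368% of all genes. Of 30 miR-125b targets recalled from general knowledge, 20 were tested and 15 lay below 0 (median -0.20). The groups of 10 did not overlap on the lower side (beside 15.6% of all genes). With edgeR, 2 were called lower, Abtb1 and Lin28b, beside 0.368% of all genes. Both calls were lost in 4 of the 5 leave-outs and stood without miR-125b replicate 1. Klf13, a Krüppel-like factor, was 45.9 and 31.1 CPM against 17.5, 20.6 and 19.1 CPM (log2 fold change -1.01, adjusted p = 0.0741), and Bak1, a pro-apoptotic BCL2 family member, was 164 and 141 CPM against 124, 122 and 120 CPM (log2 fold change -0.32, adjusted p = 0.360). Trp53, at 449 and 425 CPM against 457, 429 and 372 CPM, had overlapping groups and a log2 fold change of -0.05. Smo, the Hedgehog signal transducer, lay on the other side at 2.61 and 0.649 CPM against 11.8, 11.8 and 14.3 CPM (log2 fold change 2.95, adjusted p = 0.0510).

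The remaining lists held few calls. Of 26 tested megakaryocyte and platelet genes, 2 were called higher and 0 lower with edgeR (beside 0.615% and 0.368% of all genes), and the median was 0.01. The 2 calls became 1 without miR-125b replicate 3 and 0 without its replicate 2 or either shArid3a library. Serpine2, a protease inhibitor of platelets, was 128 and 139 CPM with shArid3a and 344, 403 and 474 CPM with miR-125b (log2 fold change 1.61 ± 0.18, edgeR adjusted p = 0.0104), and Gp1bb, a subunit of the von Willebrand factor receptor, was 23.0 and 23.0 CPM against 42.2, 51.5 and 53.4 CPM (log2 fold change 1.10, adjusted p = 0.0320). Its partner Gp1ba lay the other way without passing, at 44.6 and 23.8 CPM against 13.6, 14.6 and 17.7 CPM (log2 fold change -1.16, adjusted p = 0.106). Gp1bb overlaps Sept5 and Gm49601 on the same strand, so reads may be shared between them. Of 18 tested erythroid genes, 0 were called by edgeR (5 lower at an unadjusted p under 0.05, and 1 by DESeq2), and 13 lay below 0 with a median of -0.45. Over all genes, 6.06% were lower at an unadjusted p under 0.05. The groups of 8 erythroid genes did not overlap on the lower side, beside 15.6% of all genes. Without miR-125b replicate 1, edgeR called 2 lower, in a fit that called 127 of 13145 genes lower. Klf1, the erythroid Krüppel-like factor, was 55.5 and 36.3 CPM against 24.3, 7.95 and 12.6 CPM (adjusted p = 0.123), and Hbb-bs, an adult beta globin gene, was 116 and 189 CPM against 17.7, 49.4 and 62.3 CPM (adjusted p = 0.106). The most abundant members, Car2 and Tfrc, had log2 fold changes of -0.47 and -0.50 with adjusted p of 0.289 and 0.250.

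Of 25 tested p53 targets and apoptosis genes, 20 lay above 0 (median 0.35) and edgeR called 1 higher, beside 0.615% of all genes. DESeq2 called 4 higher (beside 3.23%). Without miR-125b replicate 1, edgeR called 7 higher, with a median of 0.56, in a fit that called 223 of 13145 genes higher. It called 0 without miR-125b replicate 2 or without its replicate 3. Phlda3, a p53-induced inhibitor of AKT signalling, was 34.9 and 38.5 CPM with shArid3a and 79.7 to 143 CPM with miR-125b, with sh-ctrl at 42.4 ± 7.27 CPM (SD, n = 3) and a log2 fold change of 1.67 ± 0.25 (edgeR adjusted p = 0.0249). Bax was 250 and 311 CPM against 383, 509 and 536 CPM (adjusted p = 0.115), and Cdkn1a was 189 and 184 CPM against 140, 292 and 310 CPM, where miR-125b replicate 1 lay below shArid3a. In the lists that follow, the counts of calls stand beside 0.615% higher and 0.368% lower among all genes with edgeR. Of 33 cell cycle genes, Ccnd1 was called higher and E2f2 lower, and the median was -0.06. Mki67 and Top2a, marks of dividing cells, had log2 fold changes of -0.34 and -0.48 with adjusted p of 0.443 and 0.228. Of 15 tested cytokine receptor genes, 2 were called (Csf2rb and Csf2rb2, median 0.25), of 17 insulin and IGF pathway genes 1 (Igfbp4, median 0.09), of 18 stem and progenitor genes 1 lower (Lin28b, median 0.06), and of 4 endothelial and stromal genes 1 higher. That gene was Pdgfrb, a platelet-derived growth factor receptor, at 21.8 and 21.4 CPM against 44.3, 60.3 and 57.7 CPM (log2 fold change 1.33, adjusted p = 0.0231). Without miR-125b replicate 2, edgeR called 0 genes of the cell cycle, cytokine receptor, insulin and IGF, stem and progenitor, and endothelial and stromal lists. Without its replicate 3, the stem and progenitor and the endothelial and stromal lists held 0 calls and the cytokine receptor list 1. The cell cycle and the insulin and IGF lists kept their counts of calls there.

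Several lists gave 0 calls with edgeR, and their counts at an unadjusted p and with DESeq2 stand beside 13.7% and 5.4% of all genes. Of 22 TGF-beta pathway genes (median -0.01), 4 passed an unadjusted p under 0.05 and DESeq2 called 1. Of 20 interferon response genes (median 0.09) the counts were 2 and 2, and of 13 NF-kB and inflammatory genes (median 0.18) they were 2 and 2. Of 13 genes of the microRNA machinery (median -0.00) they were 3 and 1, with Drosha at 110 and 111 CPM with shArid3a and 133, 123 and 115 CPM with miR-125b. Tarbp2, the partner of Dicer, was the machinery gene nearest to a call, at 46.5 and 64.7 CPM against 85.7, 98.5 and 98.9 CPM (log2 fold change 0.77, adjusted p = 0.0972). Of 12 mitochondrially encoded genes (median -0.21) the counts were 1 and 0, of 6 dendritic and MHC class II genes (median 0.52) they were 2 and 1, and of 2 hepatocyte genes, Afp and Apoa2 (median 0.97), they were 0 and 0. The only eosinophil gene tested, Siglecf, was 21.4 and 10.2 CPM against 7.36, 2.42 and 2.07 CPM (log2 fold change -2.0, adjusted p = 0.157, and called by DESeq2). Of 6 ribosomal RNA-like genes (median -0.30), Gm26917, which holds repeated ribosomal sequence, was called lower at 235 and 299 CPM against 159, 127 and 115 CPM (log2 fold change -0.99, adjusted p = 0.0484). Leaving these genes out of the fit left 130 of the 131 calls.

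**Figure D5:**
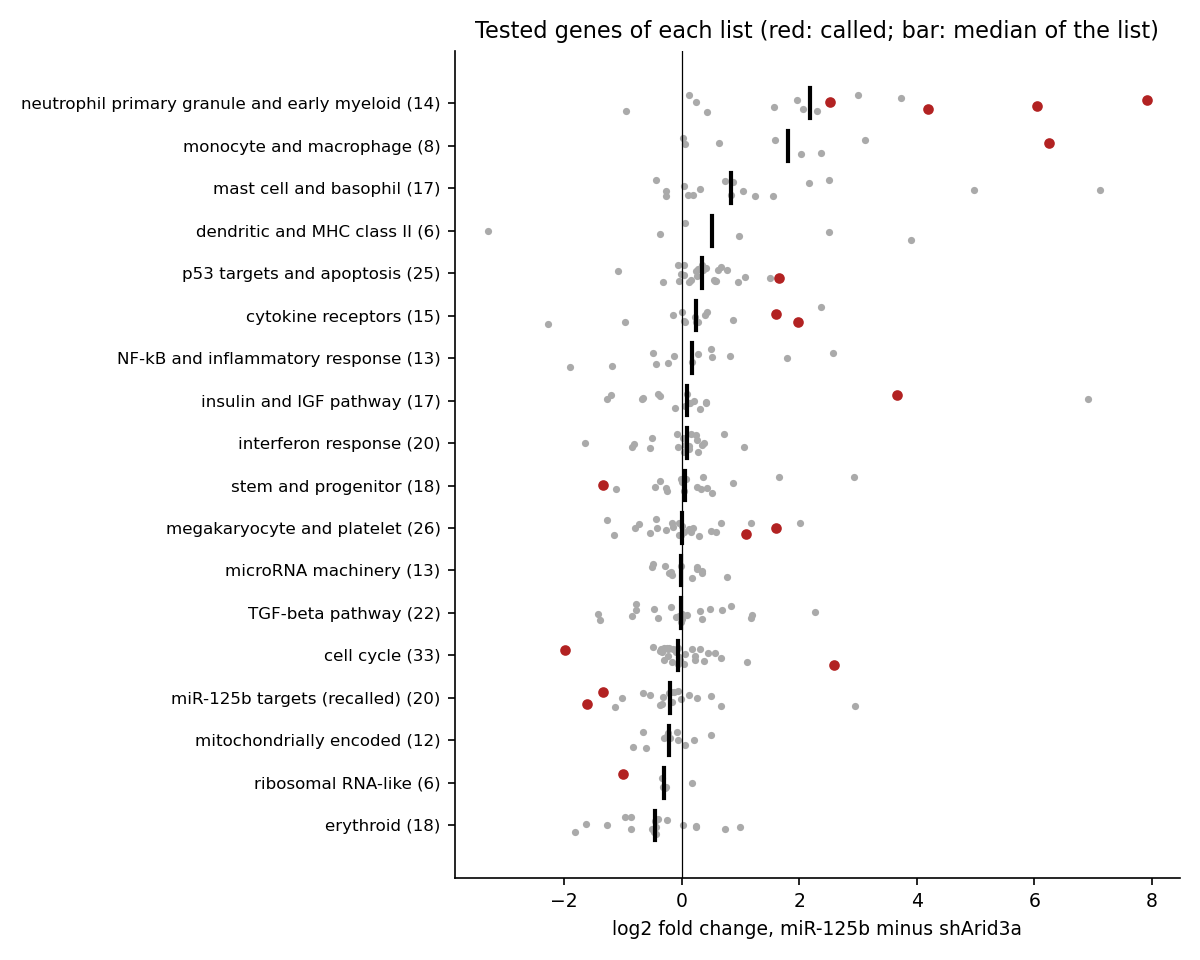
Log2 fold change of miR-125b minus shArid3a (horizontal axis) for the tested genes of the 18 lists with at least 5 of them (vertical axis, number tested in parentheses); red points are called genes, grey points are not, and the bar is the list's median over tested genes. Early myeloid genes have a median of 2.18 at the top and erythroid genes of -0.45 at the bottom, while the megakaryocyte, microRNA machinery and TGF-beta medians lie within 0.01 of 0.

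The most abundant tested members of the lists without a call gave the following levels. Srgn, the proteoglycan core of granules, was 456 and 464 CPM with shArid3a and 527, 423 and 526 CPM with miR-125b, and Gata2, a transcription factor of progenitors and mast cells, was 281 and 205 CPM against 219, 187 and 203 CPM. Tgfb1, the ligand TGF-beta 1, was 880 and 759 CPM against 803, 718 and 854 CPM, and Id1, a target of BMP signalling, was 97.4 and 169 CPM against 115, 178 and 204 CPM. The groups overlapped at all 4 of these genes. They overlapped as well at Bst2 and Oas1a (interferon-induced), Nfkb1 and Tnfaip2 (NF-kB pathway), H2-DMa and H2-DMb1 (peptide loading of MHC class II), Cxcr2 and Mmp9 (mature neutrophils), Vpreb1 (the surrogate light chain of B cell precursors) and the mitochondrial gene mt-Nd1, with adjusted p of 0.577 to 0.957. Cd3g and mt-Co1, a subunit of cytochrome oxidase, had groups that did not overlap, and mt-Co1 had a log2 fold change of -0.61 (edgeR adjusted p = 0.261). Of the members chosen in the same way and named above, Car2, Tfrc, Drosha, Tarbp2, Siglecf and Afp did not overlap either, and Apoa2 did. Over all genes tested, the groups of 30.3% did not overlap.

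Several called genes overlap another annotated gene on the opposite strand, and strand use in counting is not given in the sources used here. Besides the Tmem176 pair these are Mpo, Lamc1, Ets1, St14, Sort1, Nxpe4, Cpox, Tgm2, Ccnd1, Mfsd13a, Cln6, Sept1 and Eya2 among the genes named above, so reads of their antisense neighbours cannot be told apart from their own. The same holds for Idi1, Acss2, Actn1, Capn2 and Anxa1, which are named below.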

How the data were processed

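RNA was sequenced in 5 libraries of mouse fetal liver cells (3 miR-125b, 2 shArid3a), with 3 sh-ctrl libraries of the same table used for levels and in alternative fits. The authors deposited raw read counts per gene, made per the submitters' processing notes with fastp, HISAT2 2.0.5 and featureCounts on mm10; the annotation release and strand use are not given in the sources used here. Of 47069 genes, 46574 had an entry in GENCODE M21, which gave positions and 3′ UTRs. Counts were tested with edgeR 4.0.16 (R 4.3.3): TMM scaling, filterByExpr, quasi-likelihood fit of the 5 libraries, and Benjamini-Hochberg adjusted p under 0.05 over all genes tested. Log2 fold changes are miR-125b minus shArid3a as fitted by edgeR, and ± after them is the standard error. A prior count of 2 was used only for the log2 levels of single libraries. Levels are CPM scaled over the 8 libraries.

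Totals of 35072928 to 40859301 counts and 3 residual degrees of freedom set the precision. The test was checked on simulated data. Their spread followed only the trend with expression level and held no effects of single libraries. The check therefore cannot speak to the calls that moved with single libraries.

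The members and lists were chosen with earlier results of these data known. Named genes are Arid3a and Gata1, the 12 largest rises and 12 largest falls among called genes (average log2 CPM 1 or more), up to 4 called genes per list (else the 2 most abundant) and the 6 largest falls with an 8mer. All others were chosen after their values were seen, among them Podxl, M6pr, Cebpa, Prtn3, Calr, Prss34, Mcpt8, Cma1, Klf13, Bak1, Trp53, Smo, Klf1, Hbb-bs, Bax, Cdkn1a, Mki67, Top2a, Gp1ba, Mdga1 and Maged1. Alternatives were DESeq2 1.42.0, other scalings, filters and libraries in the fit, a robust fit, a replicate block, other seed-match definitions, and leaving out each library or the ribosomal RNA-like genes. Samples outside the 8 libraries were not used here.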

Additional observations from a re-analysis of the deposited data

How the results depend on the processing

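All 131 calls kept their direction wherever they were fitted. The number of calls (all, higher, lower) was 719, 430 and 289 with DESeq2, 901, 518 and 383 without a filter on low counts, 81 and 48 (all, higher) with library totals alone, and 96 lower with all 8 libraries in the fit. Leaving out 1 library at a time gave 6 to 350 calls, 5 to 223 higher and 1 to 127 lower; a lone shArid3a library is assumed to vary like the other group. Same-numbered libraries deviated together (r of 0.26 and 0.22), and so did miR-125b replicate 2 and shArid3a replicate 3 (r of 0.15). These values are not independent, since the 2 shArid3a libraries deviate from their mean in mirror image. With 2 pairs and no label on what a number marks, the numbers were not taken to pair the samples. With a replicate block, 421 genes were called (269 higher, 152 lower), and 255 (146 and 109) with the block and all 8 libraries. The log2 fold change of Arid3a passed at -1.13 with all 8 libraries (adjusted p = 0.0240), -1.12 with DESeq2 (0.000482), -1.13 without a filter (0.00520), -1.21 with the replicate block (0.0278) and -1.21 with the block and all 8 libraries (0.0140), and ranged from -1.21 to -0.99 over the libraries left out. The seed-match difference ranged from -0.17 to -0.0123 over the libraries left out and was -0.23 in the shortest of 3 classes of UTR length. Of 1292 values of 87 named genes over the alternatives, 1017 kept direction and call, 251 lost the call, 9 gained one and 15 changed sign. All sign changes were in genes not called: with the replicate block Tgfb1 went to 0.0248 and mt-Nd1 to 0.0545 (0.0688 with all 8 libraries). Leaving out libraries gave ranges of -0.0387 to 1.2 for Apoa2, -0.18 to 0.34 for H2-DMa, -0.89 to 0.48 for H2-DMb1, -0.0259 to 0.76 for Id1, -0.36 to 0.13 for Nfkb1, -0.0863 to 0.18 for Oas1a, -0.16 to 0.0699 for Tgfb1, -0.075 to 1.78 for Vpreb1 and -0.28 to 0.0669 for mt-Nd1. Of 343 list medians, 319 moved by less than their spread and 24 by more. The cause was not tested for any of these. Genes under the filter, including most lineage genes near 0 counts, could not be compared at this depth.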

Other observations

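Genes of lipid synthesis were lower with miR-125b than with shArid3a across lists that were drawn up after values were seen, so the counts are descriptions. Of 22 sterol synthesis genes all were tested, all 22 lay below 0 (median log2 fold change -0.54, beside -0.00 for all genes) and 2 fell with edgeR, where 0.368% of all genes were called lower. Idi1, which isomerises the isoprenoid unit, was 239 and 166 CPM with shArid3a and 79.2, 69.6 and 84.4 CPM with miR-125b, a log2 fold change of -1.38 ± 0.18 (edgeR adjusted p = 0.0206). Dhcr7, the last step of cholesterol synthesis by the Kandutsch-Russell route, was 160 and 121 CPM against 65.9, 50.7 and 69.9 CPM (log2 fold change -1.17, adjusted p = 0.0334). Neither gene's groups overlapped, and sh-ctrl held 229 to 420 CPM of Idi1 and at least 114 CPM of Dhcr7. Of 13 fatty acid synthesis genes all 13 lay below 0 (median -0.53), and 2 fell. These were Acss2, which makes acetyl-CoA from acetate, at 111 and 81.2 CPM against 37.2, 40.2 and 50.8 CPM, and Fads2, a desaturase gene, at 294 and 237 CPM against 113, 102 and 154 CPM. The 2 sterol calls became 0 without miR-125b replicate 2 or shArid3a replicate 1 and 1 without miR-125b replicate 3 or shArid3a replicate 3. The 2 fatty acid calls became 0 without miR-125b replicate 2 or either shArid3a library.

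A list of actin-binding and calcium-binding cytoskeletal genes was also drawn up after values were seen, so its count of calls is a description and supports nothing. Of its 26 tested genes, edgeR called 7 higher and 0 lower (0.615% and 0.368% among all genes), with a median of 0.07. Actn1 (alpha-actinin 1) was 4.30 and 4.16 CPM with shArid3a and 15.6, 44.5 and 55.3 CPM with miR-125b (log2 fold change 3.19 ± 0.50, edgeR adjusted p = 0.0312). Cnn2 (calponin 2) was 105 and 89.3 CPM against 310, 202 and 263 CPM (log2 fold change 1.42 ± 0.20, adjusted p = 0.0231). Capn2, S100a6, Ahnak, Anxa1 and Capg rose by log2 fold changes of 2.79, 2.29, 2.22, 1.55 and 1.16, and S100a6 in sh-ctrl, at 0.244 to 0.508 CPM, was below every other library. Abundant members such as Vim and Tagln2 had overlapping groups, with log2 fold changes of -0.13 and 0.01. The 7 calls stayed 7 without miR-125b replicate 1, became 1 without its replicate 3, and became 0 without its replicate 2 or either shArid3a library. Of 8 tested heme synthesis genes, a list of the same kind, edgeR called Cpox lower (median -0.16). DESeq2 called 2 lower, beside 2.17% of all genes. The fit with all 8 libraries also called 2 lower, where 96 of 14004 genes were called lower. The edgeR call was kept without miR-125b replicate 1 and lost without its replicate 2 or its replicate 3.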
